A study of Mus musculus with 6 samples.

Results

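Proteasome subunit genes were examined in articular cartilage of 18-month-old male knockout (KO) mice and wildtype littermates. Members were all genes whose name begins with Psma, Psmb, Psmc, Psmd, Psme or Psmf, without names holding -ps, which gave 46 of 34709 genes. The 37 constitutive genes were divided by role into 7 alpha, 7 beta, 6 ATPase and 11 non-ATPase subunits, 3 assembly chaperones of the 19S particle and 3 regulators, and 5 genes formed the immunoproteasome group. The other 4 members were Psma8, the alpha subunit known from testis; Psmb11, the beta subunit known from thymus; Psme2b, a copy of Psme2; and Psmc3ip, which carries the prefix but encodes a DNA recombination factor and no subunit. Of the 46 members, 45 had a mean of at least 0.5 FPKM (fragments mapped to a transcript, scaled by its length and by the depth of the library) and were tested. Psmb11 did not: it was listed at 0 in 4 libraries and at 0.0360 and 0.000323 FPKM in wildtype replicates 1 and 2.

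The proteasome is the barrel-shaped protease that destroys proteins tagged with ubiquitin. Its 20S core is built of outer rings of alpha subunits and inner rings of beta subunits, and the proteolytic sites sit on the beta subunits Psmb5, Psmb6 and Psmb7. The 19S regulatory particle caps the core: a ring of ATPases (Psmc genes) unfolds the substrate, and the non-ATPase subunits (most Psmd genes) bind ubiquitin and remove it. In cells of the blood lineage, and in other cells after interferon-gamma, the catalytic subunits are exchanged for Psmb8, Psmb9 and Psmb10, and the PA28 activator of Psme1 and Psme2 is made. This form, the immunoproteasome, is known for producing peptides for antigen presentation.

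Each group had 3 libraries, with 52268311 to 63331135 counts each. Members took 0.406% to 0.443% of the counts of a library. KO replicates 2 and 3 lay far closer to each other than any other pair, with a Pearson's r of 0.994 across genes against 0.959 to 0.980 for the other pairs, and they were averaged into 1 sample. The comparison was therefore made between 2 KO and 3 wildtype samples, and p-values measure the spread between these samples. Defining cartilage genes were found (10 of 12 chondrocyte markers at a mean of at least 0.5 FPKM, Comp at 65.6 and Col2a1 at 16.1 FPKM, but Col9a1 at 0.193 and Matn3 at 0.0388 FPKM), and so were genes of marrow and blood. Summed levels were 120.7 to 209.8 FPKM in KO and 149.7 to 190.7 FPKM in wildtype for the chondrocyte list, 50196 to 61501 and 26285 to 42897 FPKM for 10 neutrophil genes, 306.9 to 428.2 and 639.7 to 812.6 FPKM for 12 B cell genes, and 24898 to 60632 and 71620 to 108441 FPKM for 7 erythroid genes, with none at 0 in all libraries. The ranges of the neutrophil, B cell and erythroid lists did not overlap between the groups. Nor did the sums of 8 T and NK cell genes, 93.3 to 114.3 FPKM in KO and 71.5 to 85.5 FPKM in wildtype. Of these 8, 7 were lower in KO and Nkg7 was higher. Genes of muscle and bone were found too. In KO replicates 1, 2 and 3, the 5 skeletal muscle genes summed to 127.1, 4.27 and 3.43 FPKM. In wildtype replicates 1, 2 and 3 they summed to 29.7, 49.3 and 239.1 FPKM. The 7 osteoblast genes summed to 645.3 to 871.3 FPKM in KO and 594.6 to 1743 FPKM in wildtype. The part of these lists in the values below was not tested. In such bulk tissue, fewer cells of a type and less RNA per cell cannot be told apart.

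Promoters of some catalytic and activator genes are shown first, so that constitutive and interferon-inducible forms can be read side by side. Apart from Psmb9, only promoters holding a motif match are printed. Windows ran from 250 bases before to 50 after the start of transcription (RefSeq, GRCm38.p6), and 39 of the 46 members had one. Matches to 3 motifs were searched on both strands: TGACNNNGC, the antioxidant response element read by NRF factors, GAAA, NN and GAAA in a row, the interferon-stimulated response element, and TTCNNNGAA, the interferon-gamma activated site. Capitals in the following lines mark the match, and in Psmb9 the bases lying between its start and that of the neighbouring Tap1.
Psmb5 (chr14:54617946-54618245, minus strand): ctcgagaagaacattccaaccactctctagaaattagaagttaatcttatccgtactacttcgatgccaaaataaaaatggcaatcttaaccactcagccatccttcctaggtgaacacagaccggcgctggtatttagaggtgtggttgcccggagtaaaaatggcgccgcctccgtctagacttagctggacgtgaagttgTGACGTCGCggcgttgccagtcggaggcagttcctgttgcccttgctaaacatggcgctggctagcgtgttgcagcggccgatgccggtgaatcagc
Psmb6 (chr11:70525107-70525406, plus strand): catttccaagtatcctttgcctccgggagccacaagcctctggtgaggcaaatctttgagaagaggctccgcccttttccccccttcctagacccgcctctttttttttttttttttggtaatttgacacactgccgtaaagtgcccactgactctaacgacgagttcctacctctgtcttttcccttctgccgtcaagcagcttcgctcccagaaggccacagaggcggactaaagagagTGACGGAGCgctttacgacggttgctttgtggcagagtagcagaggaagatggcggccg
Psmb8 (chr17:34197945-34198244, plus strand): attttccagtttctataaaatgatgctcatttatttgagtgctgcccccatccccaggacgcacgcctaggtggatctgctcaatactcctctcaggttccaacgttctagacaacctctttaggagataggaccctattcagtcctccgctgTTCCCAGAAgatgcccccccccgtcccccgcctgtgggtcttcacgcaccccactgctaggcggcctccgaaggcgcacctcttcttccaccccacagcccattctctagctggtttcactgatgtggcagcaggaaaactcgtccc
Psme1 (chr14:55578244-55578543, plus strand): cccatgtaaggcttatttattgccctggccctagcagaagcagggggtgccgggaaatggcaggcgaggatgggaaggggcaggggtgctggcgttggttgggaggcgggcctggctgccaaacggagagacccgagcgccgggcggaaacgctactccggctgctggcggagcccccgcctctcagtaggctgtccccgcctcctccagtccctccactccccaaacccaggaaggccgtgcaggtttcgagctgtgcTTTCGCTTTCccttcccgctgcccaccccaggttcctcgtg
Psmb9 (chr17:34187281-34187580, minus strand): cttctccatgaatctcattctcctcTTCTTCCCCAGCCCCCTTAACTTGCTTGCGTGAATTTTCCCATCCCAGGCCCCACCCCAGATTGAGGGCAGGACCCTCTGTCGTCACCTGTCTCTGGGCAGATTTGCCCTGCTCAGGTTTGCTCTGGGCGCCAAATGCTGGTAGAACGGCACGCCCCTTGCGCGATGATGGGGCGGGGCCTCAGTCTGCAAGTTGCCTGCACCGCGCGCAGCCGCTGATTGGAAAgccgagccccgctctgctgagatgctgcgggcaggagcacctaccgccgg
Psmb5 and Psmb6, constitutive catalytic subunits, each held the antioxidant element, 47 and 9 bases before the start. For Psmb7, the remaining constitutive catalytic subunit, no match was listed, and only 4 of the 7 beta subunits had a window. Psmb8, the inducible counterpart of Psmb5, held the interferon-gamma site 97 bases before the start, and Psme1, a subunit of the PA28 activator, held the interferon-stimulated element 9 bases after it. Psmb9, Psmb10 and Psme2 held none of the 3. Over the constitutive members, 6 of 33 windows (18.2%) held the antioxidant element, against 12.4% of all 32851 windows, the others being Psmc6, Psmd9, Psmd12 and Psme4. None of the 6 windows of the 5 immunoproteasome genes held it. The interferon-stimulated element was in 3 constitutive windows (Psmb3, Psmd4 and Psmd9) and in 3.44% of all windows, and the interferon-gamma site in 1 (Psmd2) and in 8.30%. Each of these was in 1 of the 6 immunoproteasome windows. A match is a run of letters and not a measured site.

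Levels of the 42 proteasome genes with a role spanned from 3.92 FPKM for Psmd9 to 94.4 FPKM for Psma6, with a median of 30.8 FPKM. All 42 had at least 1514 counts in every library. Although the subunits of the core are built into the particle in equal numbers, their transcripts differed in level. Among alpha subunits Psma6 was highest (94.4 FPKM) and Psma3 lowest (19.7 FPKM), a ratio of 4.79. Among beta subunits the range was from 88.5 FPKM for Psmb5 to 29.0 FPKM for Psmb1, a ratio of 3.05. Among the ATPases Psmc1 was highest (58.1 FPKM) and Psmc2 lowest (16.8 FPKM), and among the non-ATPase subunits Psmd2 (40.8 FPKM) and Psmd11 (8.996 FPKM) were at the ends. Of the assembly chaperones, Psmd10 was at 19.4, Psmd5 at 7.67 and Psmd9 at 3.92 FPKM. Psme3, which forms the nuclear activator PA28-gamma, was at 70.5 FPKM, far above the other regulators, Psme4 (10.2 FPKM) and Psmf1 (7.15 FPKM). Of the immunoproteasome genes Psme2 was highest (40.7 FPKM) and Psmb9 lowest (14.6 FPKM). The plot of levels by library shows these ranges.

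**Figure D1:**
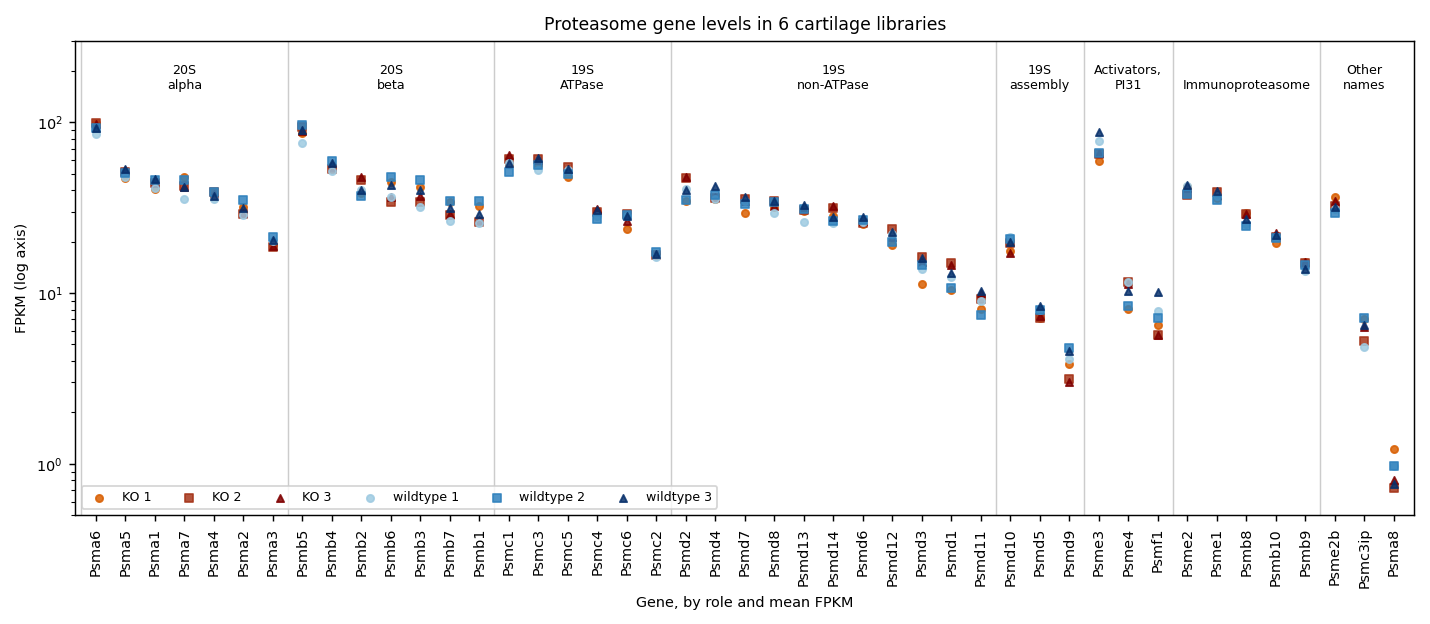
Level of each of the 45 tested members (FPKM, log axis) in each of 6 libraries, with KO in red tones and wildtype in blue tones. The libraries of both groups lie on top of each other for most genes, whereas levels between genes range from 0.908 FPKM (Psma8) to 94.4 FPKM (Psma6).

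Members varied little over the 6 libraries. The coefficient of variation of FPKM had a median of 7.55% over the 45 members, from 2.24% for Psmc2 to 23.5% for Psmf1, whereas it was 18.3% over all tested genes and 14.5% over the 7210 genes with a mean of 5 to 100 FPKM. It was 7.96% for the constitutive and 5.05% for the immunoproteasome group. Psmc2, an ATPase of the 19S base, was at 16.9, 16.8 and 16.8 FPKM in the KO replicates (in the order 1, 2, 3) against 16.2, 17.3 and 16.8 FPKM in wildtype replicates 1, 2 and 3.

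To ask whether proteasome genes changed in KO cartilage, all 15373 genes whose mean reached 0.5 FPKM were tested with edgeR's quasi-likelihood test. No member passed an adjusted p-value of 0.05 by edgeR (0 of 45, lowest adjusted p-value 0.364), and 0% of all tested genes did. At an unadjusted p-value under 0.05, 1 member was found, which was lower in KO (2.22%), against 13.7% of all tested genes, 7.63% higher and 6.07% lower. With the 6 libraries as labelled, the adjusted threshold was passed by 3.71% of all tested genes, 2.46% being higher and 1.25% lower, and 0 of 45 members did. With DESeq2 on the 5 samples these were 5.72% and 0 of 45. The median log2 difference, KO minus wildtype, was 0.004 over the members, -0.01 over the 37 constitutive genes and 0.02 over the 5 immunoproteasome genes, beside -0.02 over all tested genes. Of the members 24 were above 0 (53.3%), against 47.5% of all tested genes.

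The standard error of the log2 difference had a median of 0.131 over the members and 0.202 over all tested genes. This median was 0.159 over genes with a mean of 5 to 100 FPKM. Whether an interval stays within set bounds depends on the size of the difference as well as on the width of the interval. The 95% interval of the log2 difference lay between -1 and 1 for all 45 members, against 69.0% of all tested genes and 85.9% of those with a mean of 5 to 100 FPKM. It lay between -0.5 and 0.5 for 37 members (82.2%), against 23.2% and 37.8%. Without KO replicate 1 the lowest adjusted p-value of a member was 0.149 (Psmd9, edgeR), and without KO replicates 2 and 3 it was 0.548 (Psme2b, edgeR).

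**Figure D2:**
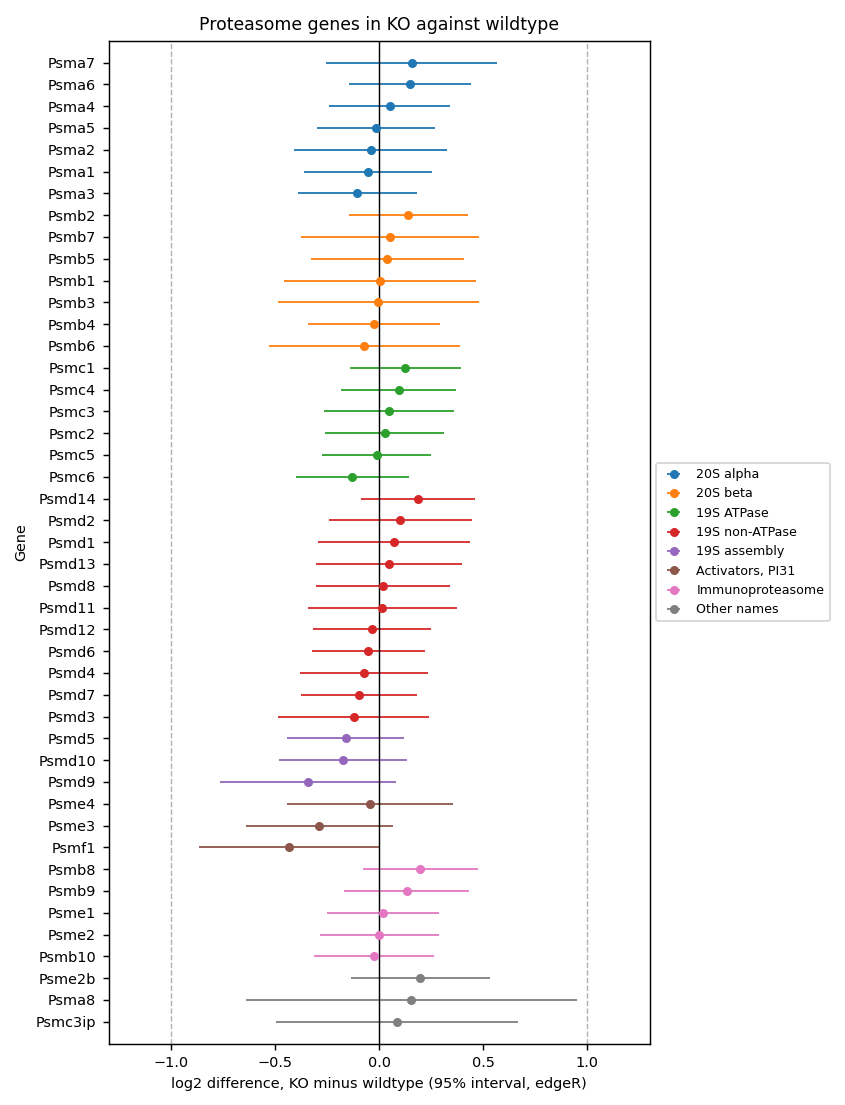
Log2 difference, KO minus wildtype, of each tested member (points) with its 95% interval from edgeR (bars), coloured by role, on 2 KO and 3 wildtype samples. Every interval lies between the dashed lines at -1 and 1, and only that of Psmf1 leaves 0 out.

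The catalytic subunits are described first. Psmb5, which carries the chymotrypsin-like site, had 86.2, 93.5 and 89.2 FPKM in KO replicates 1, 2 and 3 and 75.1, 96.3 and 90.4 FPKM in wildtype replicates 1, 2 and 3, with wildtype replicate 1 lowest and wildtype replicate 2 highest. Its log2 difference was 0.04 (standard error 0.155, interval -0.33 to 0.41). Psmb6, with the caspase-like site, had 44.5, 33.9 and 36.4 FPKM in KO and 36.4, 48.1 and 43.0 FPKM in wildtype. Here the KO libraries themselves differed, with replicate 1 in the upper part of the wildtype range and replicates 2 and 3 at or under its lower end, and the log2 difference was -0.07 (standard error 0.195). Psmb7, with the trypsin-like site, had 34.2, 28.8 and 29.0 FPKM in KO and 26.5, 34.6 and 31.5 FPKM in wildtype, again with KO replicate 1 near the highest wildtype library and a log2 difference of 0.05 (standard error 0.181). The sign for all 3 depended on the libraries or settings used, and the adjusted p-values on the 5 samples were at least 0.937 by edgeR. For Psmb6 the value was -0.31 when KO replicate 1 was left out (edgeR adjusted p-value 0.451) and stood at 0.14 when KO replicates 2 and 3 were left out (edgeR adjusted p-value 0.843).

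The inducible counterparts were present in every library. Psmb8 (chromosome 17, 34197721 to 34201454, GRCm38) had 29.2, 29.2 and 28.8 FPKM in KO replicates 1, 2 and 3 and 25.4, 24.6 and 27.3 FPKM in wildtype replicates 1, 2 and 3. All KO libraries lay above all wildtype libraries, and the log2 difference was 0.20 (standard error 0.117, interval -0.08 to 0.47, edgeR adjusted p-value 0.543). Psmb9 (chromosome 17, 34181987 to 34187764) had 15.2, 15.0 and 15.2 FPKM in KO and 13.5, 14.6 and 13.8 FPKM in wildtype. The groups did not overlap in FPKM but did in log2 CPM after scaling between libraries, and the log2 difference was 0.13 (standard error 0.128, edgeR adjusted p-value 0.748). Psmb10 (chromosome 8, 105935735 to 105938104) had 19.7, 21.1 and 22.3 FPKM in KO and 21.1, 21.1 and 21.8 FPKM in wildtype, which overlapped, giving a log2 difference of -0.03 (standard error 0.122).

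Set against its constitutive counterpart, the level of Psmb8 was 33.9%, 31.2% and 32.3% of that of Psmb5 in KO replicates 1, 2 and 3 against 33.9%, 25.6% and 30.2% in wildtype replicates 1, 2 and 3. For Psmb9 over Psmb6 the values were 34.1%, 44.1% and 41.8% in KO and 37.2%, 30.5% and 32.0% in wildtype. Psmb10 stood closest to its partner, at 57.6%, 73.5% and 77.0% of Psmb7 in KO and 79.8%, 61.1% and 69.2% in wildtype. Together, the inducible genes made up 27.996% to 30.05% of the FPKM of the 6 catalytic genes in KO libraries and 25.2% to 30.3% in wildtype libraries, so KO lay within the wildtype range. For each of these shares the groups overlapped, and the lowest wildtype share of each pair was in wildtype replicate 2. No test was made on these shares. Neutrophil and B cell genes, which moved between the groups by the values given above, mark cells that express the inducible subunits, and their part in these shares was not tested. The part of transcript length, described below, was not tested either.

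**Figure D3:**
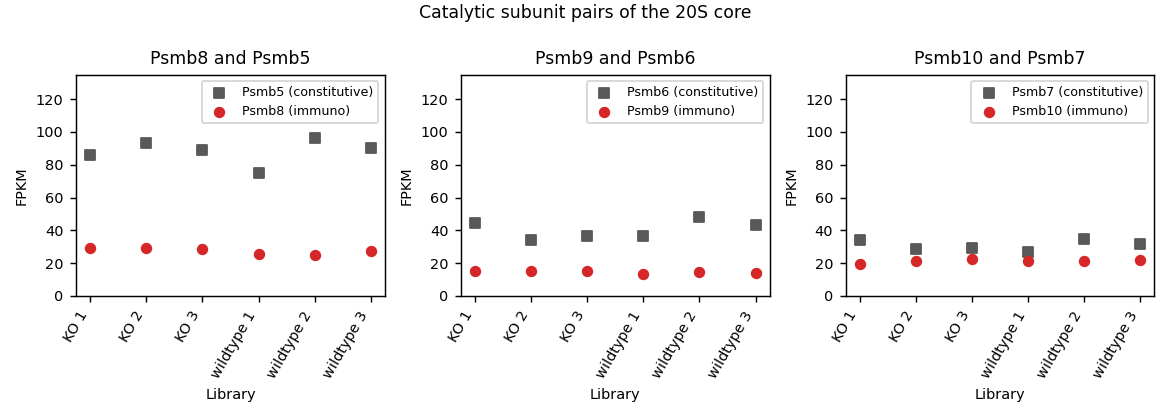
FPKM of the constitutive catalytic subunits (grey squares) and their inducible counterparts (red circles) in each of 6 libraries, with the axis starting at 0. The inducible gene lies below its partner in every library, and the gap is smallest for Psmb10 and Psmb7.

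The PA28 activator subunits differed little between the groups. Psme1 (chromosome 14, 55578123 to 55581528) had 36.2, 39.1 and 37.6 FPKM in KO and 37.2, 34.9 and 39.7 FPKM in wildtype, giving a log2 difference of 0.02 (standard error 0.114, interval -0.25 to 0.29). Psme2 (chromosome 14, 55587441 to 55591113) had 41.6, 37.7 and 41.5 FPKM in KO and 42.5, 38.0 and 43.1 FPKM in wildtype, giving a log2 difference of 0.0008 (standard error 0.121, interval -0.28 to 0.29). Psme2b had 36.3, 32.2 and 34.5 FPKM in KO and 31.0, 29.5 and 32.0 FPKM in wildtype, so the groups did not overlap in FPKM. Its log2 difference was 0.20 (standard error 0.141, edgeR adjusted p-value 0.627). As Psme2b is a copy of Psme2, reads may be split between them, and the values of both are uncertain. The name Psma5-ps, left out by the rule, had a mean of 5.82 FPKM, and the same holds for it and Psma5.

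Of the other 20S genes, those with the smallest p-values were Psma6, Psma7, Psma3 and Psmb2. Psma6 had 98.97, 99.2 and 97.5 FPKM in KO and 85.3, 92.2 and 93.1 FPKM in wildtype, which did not overlap in FPKM, giving a log2 difference of 0.15 (standard error 0.125, edgeR adjusted p-value 0.7003). Psma7 had 48.1, 42.3 and 42.02 FPKM in KO and 35.5, 46.0 and 41.6 FPKM in wildtype, with wildtype replicate 1 lowest and KO replicate 1 highest. Its log2 difference was 0.16, and -0.002 without KO replicate 1. Psma3 had 19.1, 18.5 and 18.9 FPKM in KO and 20.2, 21.2 and 20.4 FPKM in wildtype, all KO libraries being lower in FPKM, giving a log2 difference of -0.11 (standard error 0.121). Psmb2 had 38.7, 46.0 and 47.9 FPKM in KO and 40.4, 37.2 and 40.3 FPKM in wildtype. KO replicate 1 lay inside the wildtype range in FPKM, but in log2 CPM scaled between libraries all KO libraries were higher. The latter held for 13.7% of all tested genes. The 14 core genes had log2 differences from -0.11 to 0.16, with 7 above and 7 below 0 and 0 of 14 at an unadjusted p-value under 0.05.

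The 19S particle showed the same narrow range. Its 17 genes had log2 differences from -0.13 to 0.19, with 10 above and 7 below 0 and 0 of 17 at an unadjusted p-value under 0.05. Psmd14, the metalloprotease that removes ubiquitin chains at the mouth of the particle, had 28.2, 31.5 and 32.4 FPKM in KO replicates 1, 2 and 3 and 25.7, 26.6 and 27.9 FPKM in wildtype replicates 1, 2 and 3. All KO libraries were higher, and the log2 difference was 0.19 (standard error 0.117, interval -0.09 to 0.46, edgeR adjusted p-value 0.573). Psmd7, its structural partner in the lid, had 29.3, 35.6 and 34.7 FPKM in KO and 34.7, 33.3 and 36.6 FPKM in wildtype, and Psmd3 had 11.3, 16.3 and 15.1 FPKM in KO and 13.8, 14.6 and 15.997 FPKM in wildtype. In both, KO replicate 1 was the lowest of the 6 libraries and the other KO libraries lay within or just above the wildtype range. Among the ATPases Psmc1 had 57.2, 60.8 and 64.1 FPKM in KO and 57.4, 51.2 and 58.1 FPKM in wildtype (log2 difference 0.12). Psmc4 had 29.8, 29.8 and 31.2 FPKM in KO and 28.4, 27.0 and 30.5 FPKM in wildtype (log2 difference 0.09). Psmc6 had 23.8, 28.9 and 26.4 FPKM in KO and 28.4, 28.7 and 28.3 FPKM in wildtype (log2 difference -0.13), so the groups overlapped in FPKM for all 3. In log2 CPM scaled between libraries all KO libraries were higher for Psmc1, as for 13.7% of all tested genes.

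The assembly chaperones, which hold the ATPases while the base is put together and then leave, lay below wildtype in all 3 cases, though none passed the test. Psmd9 had 3.86, 3.15 and 3.03 FPKM in KO and 4.13, 4.73 and 4.58 FPKM in wildtype, giving a log2 difference of -0.34 (standard error 0.180, interval -0.77 to 0.08, edgeR adjusted p-value 0.474). It was -0.57 without KO replicate 1 and -0.14 without KO replicates 2 and 3. Psmd5 had 7.15, 7.13 and 7.31 FPKM in KO and 7.97, 7.99 and 8.45 FPKM in wildtype, giving a log2 difference of -0.16 (standard error 0.119). Psmd10, also known as the oncoprotein gankyrin, had 17.6, 19.7 and 17.2 FPKM in KO and 21.2, 20.6 and 19.955 FPKM in wildtype, giving a log2 difference of -0.17 (standard error 0.130). In FPKM the groups did not overlap for any of these, as for 13.7% of all tested genes in the same direction, with KO replicate 1 nearest to wildtype for Psmd9 and KO replicate 2 for Psmd10. After scaling between libraries the groups of Psmd9 overlapped.

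The 3 regulators bind the core, and their values differed in how far they held. Psmf1 (chromosome 2, 151715812 to 151744186), which encodes PI31, a protein known as an inhibitor of the core in vitro, had 6.47, 5.67 and 5.70 FPKM in KO replicates 1, 2 and 3 and 7.81, 7.14 and 10.1 FPKM in wildtype replicates 1, 2 and 3. All KO libraries were lower, and wildtype replicate 3 stood above the other wildtype libraries. Mean levels were 6.08 ± 0.552 FPKM for KO (SD, n = 2) against 8.36 ± 1.57 FPKM for wildtype (SD, n = 3), giving a log2 difference of -0.43 (standard error 0.184, interval -0.87 to -0.001). Psmf1 was the member found at an unadjusted p-value under 0.05, and its adjusted p-value was 0.364 by edgeR and 0.115 with the 6 libraries as labelled. The unadjusted p-value of 0.0494 stood at the threshold, and it was 0.0501 without KO replicate 3 and 0.0537 without wildtype replicate 1 (edgeR). Without wildtype replicate 3 the log2 difference was -0.26, with an adjusted p-value of 0.751 by edgeR. Psme3 (chromosome 11, 101316213 to 101323537) had 59.4, 65.0 and 66.4 FPKM in KO and 78.1, 66.2 and 88.0 FPKM in wildtype, where wildtype replicate 2 lay inside the KO range in FPKM but not in scaled log2 CPM, giving a log2 difference of -0.29 (standard error 0.150, interval -0.64 to 0.06, edgeR adjusted p-value 0.471). Without wildtype replicate 3 it was -0.18. Psme4, which encodes the activator PA200, had 8.07, 11.5 and 11.3 FPKM in KO and 11.7, 8.45 and 10.3 FPKM in wildtype, and its groups overlapped (log2 difference -0.04). Its sign turned with the libraries used, to 0.14 without KO replicate 1 and 0.04 without wildtype replicate 1.

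In total, the groups did not overlap in FPKM for 10 of 45 members (22.2%), 5 higher and 5 lower in KO, against 25.0% of all tested genes, 11.3% higher and 13.7% lower. In log2 CPM scaled between libraries they did not overlap for 8 members (17.8%), against 26.7% of all tested genes. The 5 genes apart on both scales were Psmb8 and Psmd14, higher in KO, and Psmd5, Psmd10 and Psmf1, lower in KO.

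Libraries differed from each other in a way that ran across the groups. In log2 CPM relative to the wildtype mean, the median of the 7 beta subunits was at 0.15 in KO replicate 1, whereas KO replicates 2 and 3 had -0.13 and -0.12. Wildtype replicates 1, 2 and 3 had -0.25, 0.22 and 0.03. For the 7 alpha subunits the same medians were 0.08, -0.02 and -0.001 in KO and -0.12, 0.10 and 0.02 in wildtype. The medians of the 11 non-ATPase subunits were at -0.04, 0.06 and -0.004 in KO and -0.08, 0.02 and 0.07 in wildtype. Those of the 6 ATPases stayed between -0.05 and 0.07. Over the 14 core subunits wildtype replicates 1 and 2 were at -0.17 and 0.17, while the median group difference of these genes was -0.0002. Across the 45 members the log2(FPKM + 1) values of a pair of libraries had a Pearson's r of 0.980 to 0.998, the highest for KO replicates 2 and 3, as a description over genes that share the libraries.

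**Figure D4:**
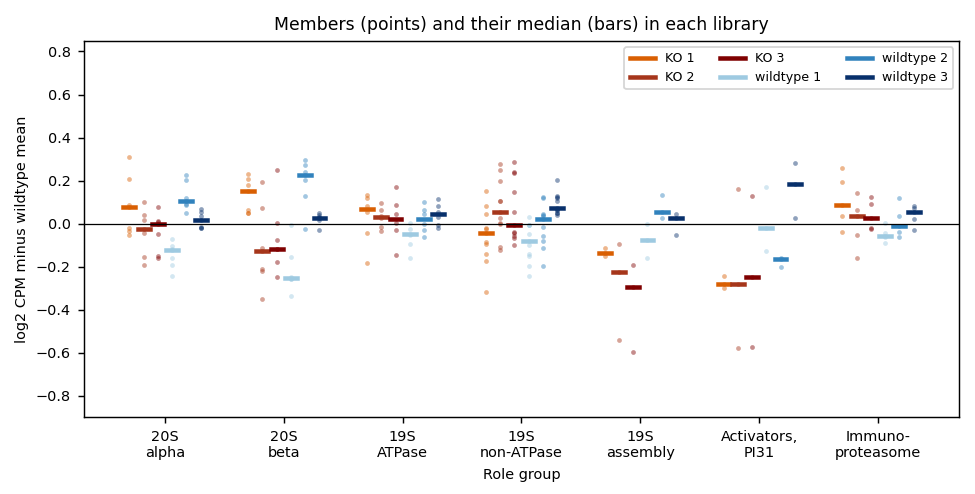
Log2 CPM of members relative to the wildtype mean (points) and their median (bars), by role group and library. Core subunits, the beta subunits above all, are high in KO replicate 1 and wildtype replicate 2 and low in wildtype replicate 1, while assembly chaperones, Psme3 and Psmf1 lie below the wildtype mean in all KO libraries and Psme4 in KO replicate 1 only.

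The deviation of a member in a library went with the length of its transcript (GENCODE M21, the longest principal transcript). Across the 45 members, log2 length and the deviation from the mean of the 6 libraries had a Pearson's r of 0.57 (Spearman's rho 0.51) in wildtype replicate 1, 0.37 (0.26) in wildtype replicate 3, -0.26 (-0.19) in wildtype replicate 2 and -0.52 (-0.49) in KO replicate 1. In KO replicates 2 and 3 it was 0.07 (0.12) and -0.05 (-0.02). Over 15355 tested genes with a length these values were 0.11 (0.17) in wildtype replicate 1, -0.006 (-0.04) in wildtype replicate 3, -0.21 (-0.32) in wildtype replicate 2 and -0.19 (-0.35) in KO replicate 1. Over the same genes, KO replicates 2 and 3 had 0.14 (0.22) and 0.12 (0.20). These values describe genes measured in the same libraries and are given with no p-value. Among the constitutive genes, the 13 with the shortest transcripts (766 to 1332 bases) had a median log2 difference between KO replicate 1 and KO replicates 2 and 3 of 0.08, and the 12 with the longest (2148 to 6491 bases) of -0.07. The group differences also went with length, with a Pearson's r of -0.46 (Spearman's rho -0.36) over the members and of -0.01 (0.01) over all tested genes. Among the assembly chaperones and regulators, the transcripts had 6491 bases for Psme4, 4397 for Psmd5, 3809 for Psmf1, 2664 for Psme3, 2597 for Psmd9 and 1430 for Psmd10. Of the catalytic genes, Psmb5, Psmb6 and Psmb7 had 899, 798 and 1160 bases, and Psmb8, Psmb9 and Psmb10 had 1628, 1352 and 1311 bases. The part of length in the values of all these genes, and in the shares of the catalytic pairs, was not tested.

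**Figure D5:**
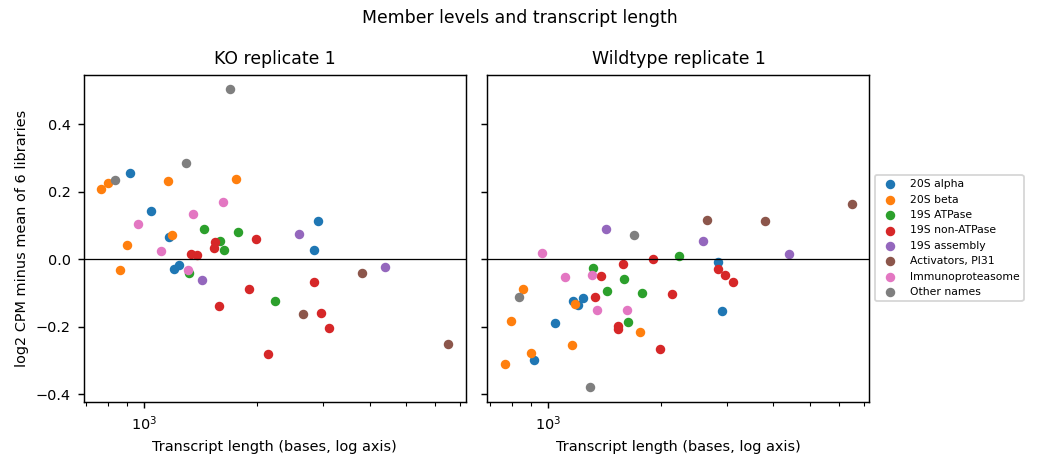
Log2 CPM of each member minus its mean over the 6 libraries against transcript length (log axis), in KO replicate 1 and wildtype replicate 1, coloured by role. Short transcripts are high in KO replicate 1 and low in wildtype replicate 1, with a Pearson's r of -0.52 and 0.57 across 45 members.

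Several members start close to a neighbouring gene on the other strand, and the values of both genes were set side by side. Psmb9 starts at 34187330 on chromosome 17 and Tap1, which encodes a subunit of the peptide transporter for antigen presentation, at 34187556, 226 bases apart. Tap1 had 14.0, 15.1 and 14.4 FPKM in KO and 14.7, 11.6 and 13.4 FPKM in wildtype, close to the levels of Psmb9, giving a log2 difference of 0.14 (standard error 0.124) beside 0.13 for Psmb9. Psmd13 starts 85 bases from Sirt3, a mitochondrial deacetylase, with log2 differences of 0.05 and 0.007. Psma2 and Mrpl32, a subunit of the mitochondrial ribosome, start 205 bases apart and had -0.04 and -0.10. Psmc5 and Ftsj3, which processes ribosomal RNA, start 101 bases apart and had -0.01 and 0.01. Psma7 and Ss18l1 start 19 bases apart and had 0.16 and 0.11. Psmd10 and Atg4a, a protease of autophagy, start 196 bases apart on chromosome X. Atg4a had 17.4, 15.4 and 15.5 FPKM in KO and 23.1, 22.0 and 25.3 FPKM in wildtype. All KO libraries were lower for Atg4a, as for 13.7% of all tested genes in FPKM. Its log2 difference was -0.49 (standard error 0.141, unadjusted p-value 0.0101, edgeR adjusted p-value 0.213), and Psmd10 had -0.17. With the 6 libraries as labelled the adjusted p-value of Atg4a was 0.0472 by edgeR, and on the 5 samples it was 0.0530 by DESeq2. These neighbours were chosen after their values were seen, as genes on the other strand with starts under 1000 bases away, and Psme2 with Rnf31, 641 bases apart, was the last of 7 such pairs.

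Genes that work with the proteasome but lie outside the name rule were taken from 7 lists, and no gene of these lists passed an adjusted p-value of 0.05 in either direction by edgeR, on the 5 samples or on the 6 libraries. Of 4 further subunits and associated deubiquitinases (Adrm1, Sem1, Uchl5 and Usp14) 0 had an unadjusted p-value under 0.05. Sem1, a small lid subunit, had 46.5, 36.6 and 37.5 FPKM in KO and 25.8, 39.6 and 29.7 FPKM in wildtype, with KO replicates 2 and 3 inside the wildtype range and a log2 difference of 0.41 (standard error 0.233, edgeR adjusted p-value 0.511). Uchl5 and Adrm1 had log2 differences of 0.20 and 0.05. Of 5 assembly factors of the core 0 had an unadjusted p-value under 0.05, and Pomp, which matures the beta subunits, was at 17.3, 15.2 and 16.2 FPKM in KO and 14.8, 18.9 and 15.8 FPKM in wildtype. Log2 differences were -0.18 for Psmg2, 0.10 for Psmg1 and -0.09 for Psmg3.

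Transcription of proteasome genes under proteasome shortage is known to be driven by Nfe2l1, whose activation needs Ngly1 and Ddi2. Of 6 genes of this control, 0 had an unadjusted p-value under 0.05, and Nfe2l1 had 15.2, 16.8 and 17.7 FPKM in KO and 18.2, 14.9 and 17.9 FPKM in wildtype. Log2 differences were -0.25 for Mafk, 0.18 for Mafg and 0.13 for Nfe2l2. Among 6 genes that supply and activate ubiquitin, 0 had an unadjusted p-value under 0.05, with 0.31 for Uba1, -0.16 for Ubb and 0.09 for Rps27a. Uba1, the main ubiquitin-activating enzyme, was at 32.0, 52.6 and 51.9 FPKM in KO and 37.2, 29.6 and 36.1 FPKM in wildtype, so KO replicate 1 lay within wildtype and KO replicates 2 and 3 above it. Among 9 shuttle factors and unfoldase genes 0 had an unadjusted p-value under 0.05. Log2 differences were -0.24 for Ubqln4 and -0.16 for Zfand5, which bring ubiquitinated proteins to the 19S particle.

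Genes that share interferon control with the immunoproteasome were examined last. Among 8 antigen presentation genes there were 0 at an unadjusted p-value under 0.05. The log2 differences ranged from -0.30 to 0.25. Tap2 had 17.2, 21.5 and 19.97 FPKM in KO and 17.5, 13.7 and 17.4 FPKM in wildtype (log2 difference 0.25, edgeR adjusted p-value 0.499), and Nlrc5, the transcriptional activator of class I genes, had -0.30. Of 7 genes of the interferon-gamma response, 1 had an unadjusted p-value under 0.05, a share near the 13.7% of all tested genes. This was Ifngr2, a chain of the interferon-gamma receptor, with 21.4, 20.1 and 19.8 FPKM in KO and 17.3, 17.1 and 16.03 FPKM in wildtype, and a log2 difference of 0.32 (standard error 0.126, edgeR adjusted p-value 0.330). Ifngr1, the other chain, had 47.6, 66.5 and 63.3 FPKM in KO and 49.7, 44.2 and 45.5 FPKM in wildtype, with KO replicate 1 inside the wildtype range. Log2 differences were 0.29 for Ifngr1 and 0.13 for Jak1, while Irf1 (-0.02), which acts after that receptor, stood near 0.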

How the data were processed

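Total RNA of mouse articular cartilage was extracted with Trizol, and mRNA libraries that keep the strand and carry molecular identifiers were sequenced as read pairs of 150 bp. The submitters' processing notes name cutadapt 1.9, HISAT2 2.0.4, UMI-tools, StringTie 1.3.4d, DESeq2 and edgeR, with no roles given. The authors deposited, per gene and library, estimated counts and FPKM values, with positions on GRCm38. The FPKM values are per length, and levels between genes were compared on them alone.

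Counts were rounded. Genes whose mean reached 0.5 FPKM were tested with edgeR 4.0.16 (R 4.3.3, TMM scaling, quasi-likelihood test, Benjamini-Hochberg over all tested genes), after a test on simulated data. KO replicates 2 and 3 were averaged as a precaution, because of their likeness. The labels do not say that libraries came from separate animals, while the study's methods describe its samples in general as independent. The noise ratio of this pair, the spread of count differences over that of sampling, was 5.75 against 22.8 to 83.8 for other pairs. A floor of 3 counts was 0.0574 CPM in the shallowest library and covers counting error only. DESeq2 1.42.0 and limma 3.58.1 on log2(FPKM + 1) or log2(FPKM + 0.1), other scaling, other filters, the replicate block and left-out libraries were alternatives. The labels give no batch.

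Members and lists were chosen with earlier results of these data known. Genes named with every library's value were the immunoproteasome genes, the catalytic subunits, the regulators and the 3 smallest unadjusted p-values of each role. Psmc2, Psme2b and the genes of the lists were named after their values were seen. Promoters came from RefSeq, and transcript lengths from GENCODE M21, with a length for all 46 members. Of the members, 8 overlap another gene on the same strand, of which the highest was at 8.04 FPKM (Gm15542, over Psmd13). Values of the targeted gene are not reported here.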

Additional observations from a re-analysis of the deposited data

How the results depend on the processing

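No member passed an adjusted p-value of 0.05 under any of the 16 alternatives, by edgeR, DESeq2 or limma, and none was higher in KO at an unadjusted p-value under 0.05. The count of members lower at an unadjusted p-value under 0.05 (1, Psmf1) was 3 with the 6 libraries as labelled (Psmf1, Psme3 and Psmd9, beside 10.3% lower among all tested genes), and 0 with median-of-ratios scaling, with no filter on low values, with limma at either pseudocount or after quantile normalization, and without KO replicates 2 and 3 together. Leaving out single libraries gave 0 to 2. The counts over all genes tested at an adjusted p-value under 0.05 were 0 on the 5 samples, 570 with the 6 libraries, 880 with DESeq2, 21 of 33520 genes with no filter and 352 without KO replicate 1.

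The median log2 difference of the immunoproteasome genes (0.02) was -0.03 after quantile normalization and 0.094 without KO replicates 2 and 3 together, and -0.00047 to 0.077 when single libraries were left out. That of the constitutive genes (-0.01) was -0.07 to 0.04. The labels do not say whether the replicate numbers pair the samples. The deviations of libraries with the same number had correlations of -0.14, -0.11 and -0.058. These cannot decide it, because KO replicates 2 and 3 were nearly alike. With the replicate block, 0 members passed the adjusted threshold and 1 the unadjusted one.

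The sign of 9 named members changed under some alternative. With the 6 libraries Psmb7 was at -0.0085, Psme2 at -0.029 and Psme4 at 0.018, and with the replicate block at -0.0061, -0.032 and 0.015. With no filter Psmb10 was at 0.010. At a minimum mean of 5 FPKM, where Psmd9 had no value, Psmb5 was at -0.0045, Psme1 at -0.026 and Psme2 at -0.045. With limma Psme2 was at -0.020 for both pseudocounts, and after quantile normalization Psmb5 was at -0.056, Psmb7 at -0.0098, Psme1 at -0.032 and Psme2 at -0.054. Without KO replicates 2 and 3 together Psmb6 was at 0.14. When single libraries were left out, the range was -0.0019 to 0.28 for Psma7, -0.077 to 0.15 for Psmb5, -0.31 to 0.057 for Psmb6, -0.14 to 0.17 for Psmb7, -0.19 to 0.050 for Psmd3, -0.0018 to 0.077 for Psme1, -0.092 to 0.043 for Psme2 and -0.14 to 0.14 for Psme4. The cause was not tested. Where the fit leaves 1 KO sample, this is assumed to vary like the wildtype samples.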
